A study of Homo sapiens with 16 samples.

Results

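The regions described here are stretches of chromatin where a peak of H3K27 acetylation was called in TWEAK-treated MDA-MB-231 cells and not in untreated ones. The same gain was not called in Hs578T cells. A member had a peak in both MDA-MB-231 control TWEAK lists, in neither MDA-MB-231 control untreated list, in neither Hs578T control untreated list and not in both Hs578T control TWEAK lists. Overlapping peaks of the 16 lists were joined into regions, and 646 of the 55219 consensus regions, those found in 2 or more lists, met the rule. Members were thus chosen by the presence of a peak in the 8 control lists, so their presence in those lists is a description and is given without a test. A gain in MDA-MB-231 control cells, defined as a peak in both TWEAK and neither untreated list, was found at 3079 regions, or 5.58% of all consensus regions. Of these, 646 were members, 1367 were gained in Hs578T control cells as well, and 1066 had a peak in an untreated Hs578T control list.

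H3K27ac ChIP-seq had been performed in MDA-MB-231 and Hs578T, established human triple-negative breast cancer lines. In each line, control cells were set beside an Fn14 knockout (KO) made with the TLCV2 CRISPR vector and 2 guides. All cells were starved for 8 h in optimem, then left untreated or exposed to TWEAK at 10 ng/ml for 48 h, with fresh TWEAK after 24 h. Each of the 8 groups had 2 lists, which the study's methods call biological replicates. The study's methods say that the KO cells were found by western blot and checked by Sanger sequencing, and its genotyping primers are headed as for CRISPR clones. How many clones stood behind each KO group is not stated there, and a peak list holds no measure of the edit itself.

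TWEAK is a cytokine of the TNF family, and Fn14, encoded by TNFRSF12A, is its receptor. Ligand-bound Fn14 recruits TRAF adaptors, which stabilises the kinase NIK and releases p52 and RelB, the dimer of the non-canonical NF-κB pathway, and can also activate JNK and through it AP-1 factors. NF-κB dimers bind κB sites, and histone acetyltransferases brought to such sites place H3K27ac, the mark of active enhancers and promoters. A peak list from a cell population cannot tell apart fewer cells carrying the mark and less of the mark per cell.

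Promoters of the mesenchymal or basal markers VIM, CD44, AXL, FOSL1, EGFR and CAV1 had a peak in all 16 lists. Those of ESR1, PGR, CDH1 and ESRP1, and of the leukocyte genes PTPRC and CD3E, had none. The label of a basal, non-luminal line was not matched by every gene, since promoters of the luminal genes GATA3, SPDEF and TFF1, of the epithelial genes EPCAM and GRHL2 and of the endothelial gene PECAM1 also had a peak in all 16 lists. The lists held 39544 to 47197 peaks. MDA-MB-231 Fn14 KO lists had lower median −log10 q-values (5.79 to 7.69) than MDA-MB-231 control lists (9.44 to 10.8), and untreated replicate 1 of the MDA-MB-231 Fn14 KO pair had 46295 peaks against 39544 in replicate 2.

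VIPR2_1, EPHA6_4 and RRP15_8 are shown first as sequence, because they are among the strongest and carry, or lack, the motif on which much of what follows turns. The central 300 bp are given 5′ to 3′ on the plus strand of hg38 in lower case, with every match to the κB motif on either strand in capitals. The κB motif was a degenerate pattern of 10 bases. VIPR2_1, at chr7:159211716-159212015, is the strongest member and has no match. EPHA6_4, at chr3:96430251-96430550, and RRP15_8, at chr1:218217218-218217517, have 1 match each. Members are named by the gene with the nearest protein-coding start and by their rank in strength, and the name makes no claim that the gene is regulated by the region.

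VIPR2_1: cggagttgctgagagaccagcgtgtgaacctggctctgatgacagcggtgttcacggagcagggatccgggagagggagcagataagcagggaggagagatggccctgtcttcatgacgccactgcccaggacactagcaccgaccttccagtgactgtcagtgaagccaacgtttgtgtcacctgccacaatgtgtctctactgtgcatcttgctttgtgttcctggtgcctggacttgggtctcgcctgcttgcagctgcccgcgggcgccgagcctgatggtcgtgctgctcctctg
EPHA6_4: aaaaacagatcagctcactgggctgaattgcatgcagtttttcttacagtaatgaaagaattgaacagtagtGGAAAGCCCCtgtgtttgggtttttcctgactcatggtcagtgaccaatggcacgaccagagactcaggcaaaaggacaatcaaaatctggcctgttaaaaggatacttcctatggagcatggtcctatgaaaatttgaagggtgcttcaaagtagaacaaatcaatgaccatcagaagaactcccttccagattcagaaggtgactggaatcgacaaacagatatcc
RRP15_8: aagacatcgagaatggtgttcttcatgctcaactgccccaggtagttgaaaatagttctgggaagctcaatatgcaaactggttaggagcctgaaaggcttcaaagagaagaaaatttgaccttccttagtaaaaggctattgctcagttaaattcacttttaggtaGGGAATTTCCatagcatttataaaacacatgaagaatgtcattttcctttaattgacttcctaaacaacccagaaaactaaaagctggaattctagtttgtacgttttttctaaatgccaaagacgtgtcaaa

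Shorter stretches of 30 bp show further κB matches of strong members, again on the plus strand and with matches in capitals. PLA2G4A_11, at chr1:188270130-188270159, and HAO1_12, at chr20:7695717-7695746, hold on the minus strand the same 10 bases that RRP15_8 holds on the plus strand. SEC61B_13, at chr9:99253767-99253796, had a second match further along the region. CCL5_37, at chr17:35880400-35880429, and TNFRSF19_52, at chr13:23530099-23530128, hold 2 and 3 matches within 30 bp, of which 2 in TNFRSF19_52 overlap on opposite strands.

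PLA2G4A_11: ctaagaggttGGAAATTCCCtttcttcact
HAO1_12: tagtcactttGGAAATTCCCaaactgtgag
SEC61B_13: tcacagagctGGGATTTCCCacatttactt
CCL5_37: tgaGGGGCATCCCctaagGGGAGTTTCCaa
TNFRSF19_52: aaGGGAGTTCCCaacctcGGGGAACCCCCa

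Most members were weak peaks. Their median −log10 q-value was 2.64 in TWEAK replicate 1 and 2.79 in TWEAK replicate 2 of the MDA-MB-231 control cells, with a range over both lists of 1.05 to 18.6, and lists were cut by the peak caller near 1. Their median fold enrichment over local background was 3.28 and 3.31. Regions gained in both lines had higher medians, at 4.19 and 4.66 for −log10 q and 3.90 and 4.03 for fold enrichment, and all consensus regions with a peak reached 11.1 and 11.5 for −log10 q. A −log10 q of at least 3 in both TWEAK lists was held by 24.9% of members and 63.8% of the shared gains, and a value of at least 10 by 3 members and 171 shared gains. Members were also narrower, with a median width of 823.5 bp against 1121 bp for shared gains and 1702 bp for all consensus regions. Across the 646 members, the Spearman correlation between TWEAK replicates was 0.47 for −log10 q and 0.54 for fold enrichment, which describes members that share these libraries and is given without a p-value.

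**Figure D1:**
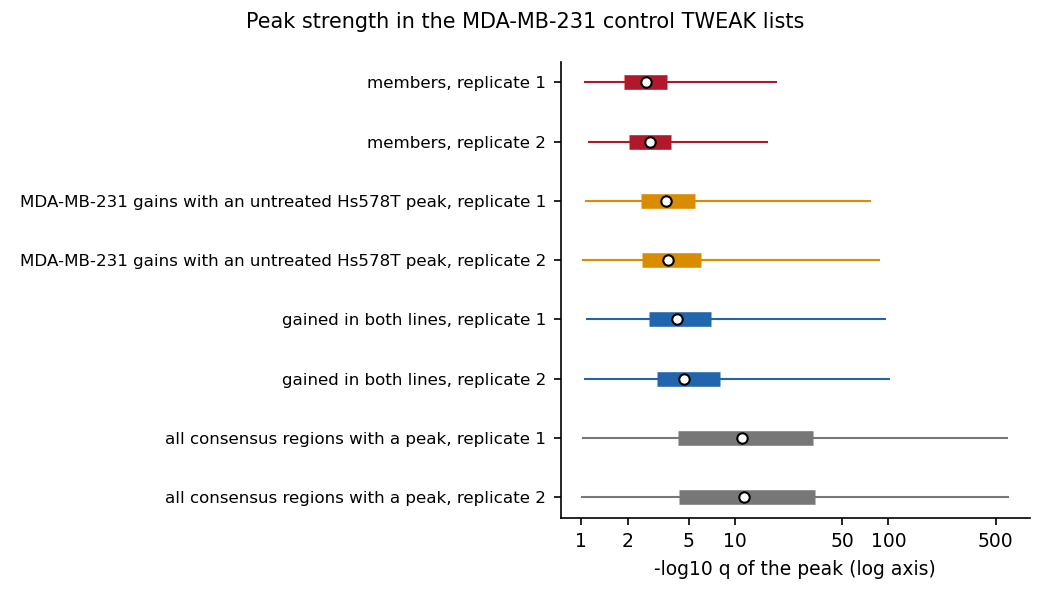
The −log10 q-value of peaks (horizontal log axis) in the MDA-MB-231 control TWEAK lists, replicates 1 and 2, for members, the other gain classes and all consensus regions with a peak. Thin lines run from the lowest to the highest value, thick bars span the quartiles and circles mark medians, which lie at 2.64 and 2.79 for members and at 4.19 and 4.66 for regions gained in both lines.

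The strongest member, VIPR2_1 (chr7:159211302-159212429), lay 66.4 kb upstream of VIPR2, the gene of a receptor for vasoactive intestinal peptide. It had −log10 q-values of 18.6 and 16.1 in the MDA-MB-231 TWEAK lists and a peak in no other list. FAAH2_2 (chrX:57417501-57418587), in an intron of the gene of a fatty acid amide hydrolase, followed with 10.1 and 13.2 and also had a peak of 4.44 in Hs578T TWEAK replicate 1. TMEM185A_3 (chrX:149605195-149606749) had 10.0 and 11.3, with 1.63 in Hs578T TWEAK replicate 2. These were the 3 members with at least 10 in both TWEAK lists, and none of them had a peak in any Fn14 KO list.

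EPHA6_4 (chr3:96429787-96431014), 384 kb upstream of an ephrin receptor gene, had 9.55 and 10.5, and UGP2_5 (chr2:63814044-63814865), upstream of the gene of UDP-glucose pyrophosphorylase, had 11.9 and 8.15. Neither had a peak in any other list. RETREG1_6 (chr5:16538857-16540852), at a gene for an ER-phagy receptor, had 7.89 and 8.23 and a peak of 1.99 in 1 Fn14 KO list of MDA-MB-231, TWEAK replicate 1. RRP15_8 had 7.04 and 9.03, with 2.86 in Hs578T TWEAK replicate 1, and ENOX1_9 (chr13:43697362-43699046) had 7.02 and 7.54, with 1.90 in Hs578T TWEAK replicate 2.

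PLA2G4A_11 (chr1:188269649-188271065), 1441 kb from the start of the gene of a cytosolic phospholipase A2, had 8.53 and 6.74, and HAO1_12 (chr20:7695561-7696320) had 6.63 and 6.56, both with no peak elsewhere. CDH19_15 (chr18:66510761-66512749), at a cadherin gene, had 5.58 and 6.82 and likewise no other peak. SEC61B_13 (chr9:99253519-99254350), near the gene of a translocon subunit, departed from the rest. It had 6.13 and 6.03 in the MDA-MB-231 TWEAK lists, but also 4.80 and 1.31 in the untreated and 2.53 and 2.86 in the TWEAK-treated Fn14 KO lists of that line. Of the 15 strongest members, 12 had no peak in any MDA-MB-231 Fn14 KO list, 11 had none in a Hs578T control TWEAK list, and 6 held a κB match. At the other end, the 5 weakest members (ARHGAP29_642, PTPRC_643, YWHAZ_644, ANKS1B_645 and FAM83B_646) had lower values of 1.05 to 1.12, close to the calling limit.

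Regions just outside the rule were weaker or stronger than members according to the condition they missed. A further 602 regions met it except that 1 of the MDA-MB-231 TWEAK lists lacked a peak, and the median of their higher −log10 q was 1.97. Another 208 had a peak in 1 untreated MDA-MB-231 list (median 3.35) and 72 in 1 untreated Hs578T list (median 2.58). Among members, the median of the higher value was 3.33 for the 271 with a peak in 1 Hs578T TWEAK list and 3.09 for the 375 with none, against 5.20 for the 1367 regions with a peak in both. When members were redefined without TWEAK replicate 1 of MDA-MB-231, 63.1% of 1024 regions had a peak in the list left out. Without TWEAK replicate 2 it was 74.3% of 870. Of all consensus regions, 71.6% and 73.0% had a peak in these lists. For the untreated MDA-MB-231 lists, 5.97% of 687 and 20.5% of 813 regions had a peak in the list left out, replicates 1 and 2 in turn. Of all consensus regions, 68.0% and 75.7% had one there. A region absent from a list is therefore not a region shown to lack the mark.

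The 8 Fn14 KO lists, which the rule did not use, were examined next. In MDA-MB-231 Fn14 KO cells, 129 (19.97%) and 49 (7.59%) of the members had a peak in untreated replicates 1 and 2, and 75 (11.6%) and 63 (9.75%) in TWEAK replicates 1 and 2. The TWEAK lists lay between the untreated ones. In Hs578T Fn14 KO cells the shares were 3.72% and 4.49% untreated and 3.41% and 4.18% with TWEAK, and the treatments overlapped there as well. Over all consensus regions the same 8 lists held 65.8% to 78.1%, but members were chosen for lacking a peak in untreated control cells. When an untreated MDA-MB-231 list was left out of the rule, 5.97% (replicate 1) and 20.5% (replicate 2) of the regions then chosen had a peak in it. The MDA-MB-231 KO lists also had lower median −log10 q-values than the control lists. The low shares in KO lists do not by themselves show that members need the receptor. Fully 467 members (72.3%) had no peak in any MDA-MB-231 Fn14 KO list, 15 (2.32%) had a peak in all 4, and 441 (68.3%) had none in all 8. Over all consensus regions these shares were 18.3%, 59.6% and 6.93%. Regions gained in both lines were close to the members, at 71.4%, 3.44% and 65.6%. Of the regions private to Hs578T, 68.2% had no peak in all 8.

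**Figure D2:**
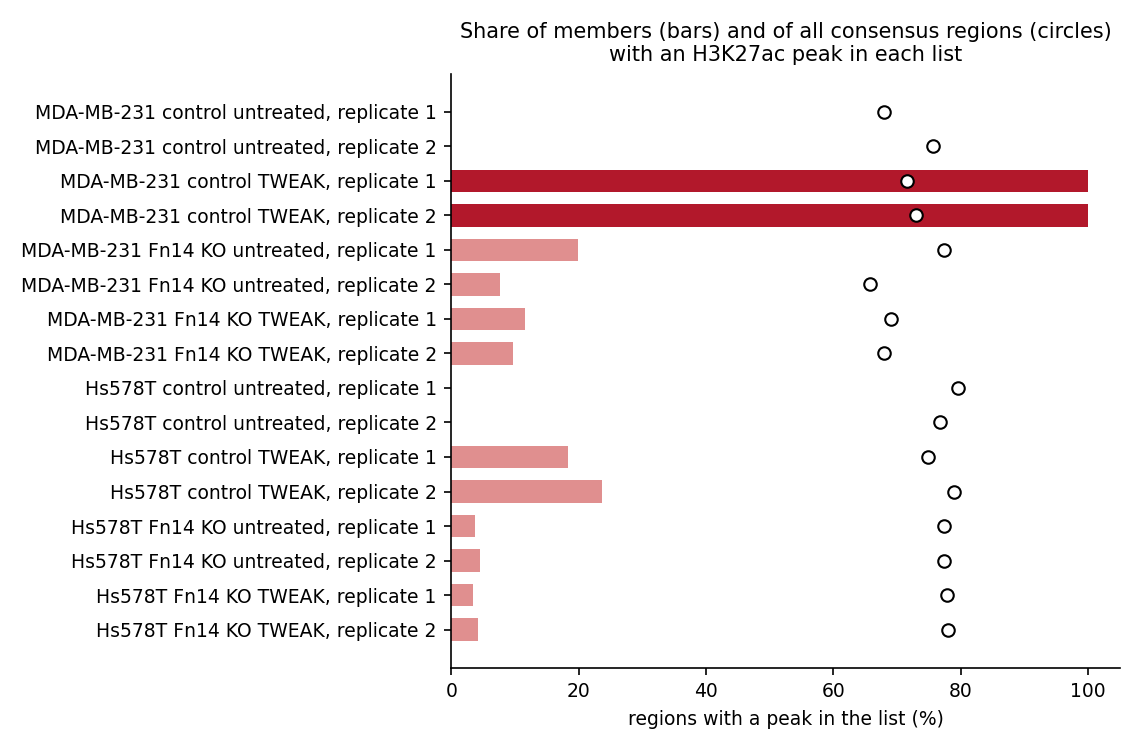
Share of the 646 members (bars) and of the 55219 consensus regions (circles) with an H3K27ac peak in each of the 16 lists, in percent. The dark bars at 100% and the empty rows are fixed by the rule, while the Fn14 KO rows, which the rule did not use, run from 3.41% to 19.97% for members.

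The mean share of members with a peak was 13.8% ± 8.76 (SD, n = 2) in the untreated and 10.7% ± 1.31 (SD, n = 2) in the TWEAK-treated KO lists of MDA-MB-231. For Hs578T these means were 4.10% ± 0.547 and 3.79% ± 0.547 (SD, n = 2). Averaged over lines, TWEAK-treated minus untreated came to −1.70 percentage points. An exact, two-sided permutation test that kept the lines apart gave p = 0.778 (Benjamini-Hochberg adjusted 0.778 over 3 tests, the comparison of lines counted among them), where 36 arrangements allow no p below 0.0556. Taken relative to all consensus regions in the same list, the change was −0.42 points (exact p = 0.333, adjusted 0.5). Without untreated replicate 1 of MDA-MB-231 Fn14 KO, the list with the most peaks of that line, the first difference turned to 1.39 points.

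By the rule used for control cells, 1 member was gained in MDA-MB-231 Fn14 KO cells, where 0.321% of all consensus regions were, and 6 were lost (both untreated, neither TWEAK list), where 1.35% were. In Hs578T Fn14 KO cells 5 members were gained and 5 lost, against 1.05% and 0.829% of all consensus regions. As shares of the members these are 0.155%, 0.929%, 0.774% and 0.774%. With only 1 to 6 members each, these counts were not set apart from the background. The single member gained in the KO cells was NME1_152 (chr17:51147341-51148192), upstream of the gene of a nucleoside diphosphate kinase, with 3.04 and 4.46 in the control TWEAK lists and 1.85 and 1.43 in the Fn14 KO TWEAK lists.

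The share of members with a peak was 8.28 percentage points higher in MDA-MB-231 than in Hs578T Fn14 KO lists, and every MDA-MB-231 list lay above every Hs578T list. Over all consensus regions the difference was −7.64 points. Members were chosen for peaks in MDA-MB-231 and for their lack in untreated Hs578T cells, which favours this direction, so the difference is a description and no test of it is given. The same difference was 7.55 points for regions gained in both lines and −3.66 for regions private to Hs578T.

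SPANXA1_382 and HIVEP3_22 had a peak in most or all KO lists and were singled out after their values were seen. SPANXA1_382 (chrX:141467910-141470934) had −log10 q-values of 1.99 and 2.54 in the control TWEAK lists, but 11.0 and 8.07 in the untreated and 8.10 and 6.86 in the TWEAK-treated MDA-MB-231 Fn14 KO lists, and had a peak in all 8 KO lists. HIVEP3_22 (chr1:41876582-41877532), in an intron of a zinc finger gene and with a κB match, was stronger in the control TWEAK lists, at 5.26 and 5.02, than in any of its 7 KO lists, where it ranged up to 3.29.

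In Hs578T control cells, 118 members (18.3%) had a peak in TWEAK replicate 1 and 153 (23.7%) in TWEAK replicate 2, no member having both by the rule. Of the regions with no untreated control peak that were gained in neither line, 9.72% and 17.9% had a peak in these lists. Below, these are called regions that were not gained. They needed a peak in 2 or more lists, so most were marked in KO cells, and only 7.98% had no KO peak. Members with a Hs578T TWEAK peak were no rarer among the strong ones, at 42.9% of the 161 strongest against 41.4% of the 162 weakest. Only 261 members (40.4%) had a peak in no list other than the MDA-MB-231 TWEAK pair.

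The sequence of the members was then examined, which the rule did not use. A κB match lay in the central 500 bp of 129 members (19.97%), against 8.59% of all consensus regions, 7.14% of the 3097 regions with no untreated control peak that were gained in neither line, and 3.87% of the 2481 regions lost in MDA-MB-231. Regions private to Hs578T were close to the members at 19.5%, regions gained in both lines were higher at 34.2%, and MDA-MB-231 gains that already had an untreated Hs578T peak were lower at 12.48%. These are shares of regions, which are not replicates, and no test was made. A narrower form of the motif, with a fixed run of T, which overlaps the first, was held by 14.4% of members, 20.9% of shared gains, 12.02% of Hs578T private gains and 3.71% of all consensus regions.

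**Figure D3:**
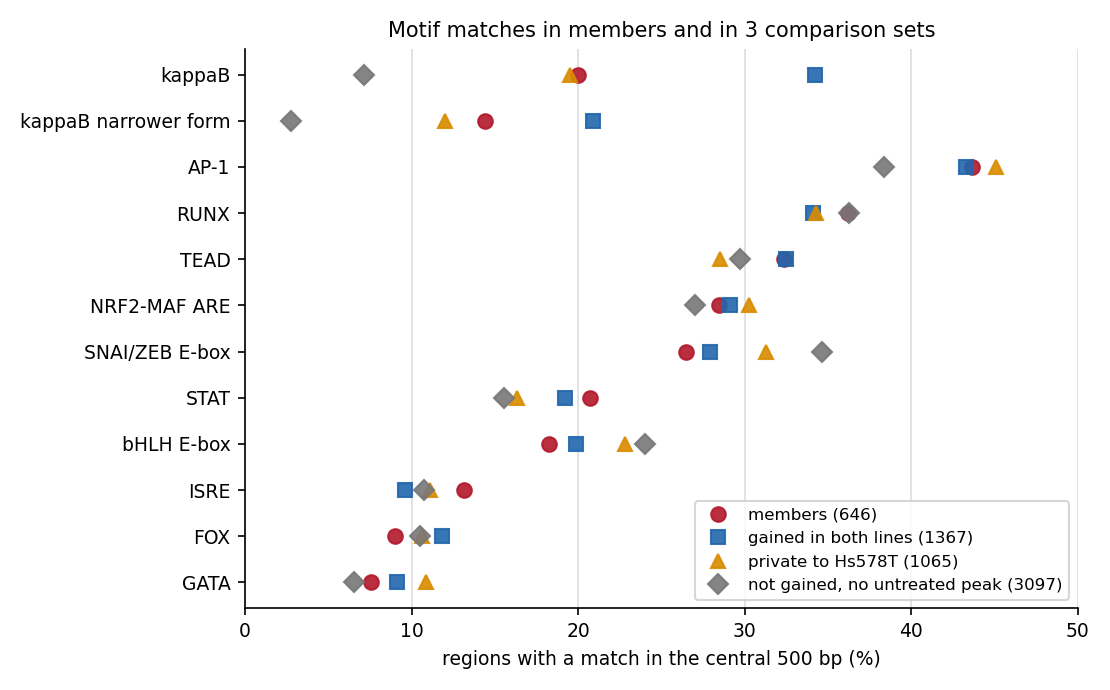
Share of regions with a motif match in the central 500 bp (horizontal axis, percent) for 12 motifs in members, regions gained in both lines, regions private to Hs578T and regions with no untreated control peak that were not gained. The κB motif sets the sets furthest apart, from 7.14% to 34.2% with members at 19.97%, while AP-1 lies between 38.4% and 45.1%.

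The κB share was lowest in the weakest members, and members had a lower share than shared gains in each of 5 bands of strength. By the lower −log10 q of the TWEAK lists, members had a match in 12.05% (10 of 83) from 1 to 1.5, 18.8% from 1.5 to 2, 21.3% from 2 to 3, 22.5% from 3 to 5 and 30.4% (7 of 23) from 5 upward. Shared gains in the same bands had 16.3%, 24.6%, 24.6%, 34.4% and 45.1%. Split into 4 groups of 161 or 162 from weakest to strongest, members had 13.6%, 22.8%, 19.9% and 23.6%, with no steady rise past the weakest group. Regions that missed the rule by 1 TWEAK list had 12.6%, and those with a peak in 1 untreated MDA-MB-231 list 10.6%. Among members, 104 had 1 match, 21 had 2, 3 had 3 and the remaining one more. Outside chromosome 8, the most frequent matched letters, read 5′ to 3′ on the strand of the match, were GGGACTTTCC with 17 matches, followed by GGGAGTTTCC and GGGGCTTTCC with 10 each. These differ from the letters shown above for RRP15_8, PLA2G4A_11 and HAO1_12, GGGAATTTCC, which had 6 matches.

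κB matches were concentrated at the centre of the members. Within 200 bp of the centre, a bin of 100 bp held a match in 5.03% of members on average, against 1.14% at 600 to 1000 bp. For shared gains the values were 8.27% and 0.823%, for Hs578T private gains 4.65% and 0.775%, and for the regions that were not gained 1.57% and 1.03%. AP-1 matches were central too, with 11.6% and 3.54% in members, but they were nearly as central in regions that were not gained, with 9.56% and 3.003%.

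**Figure D4:**
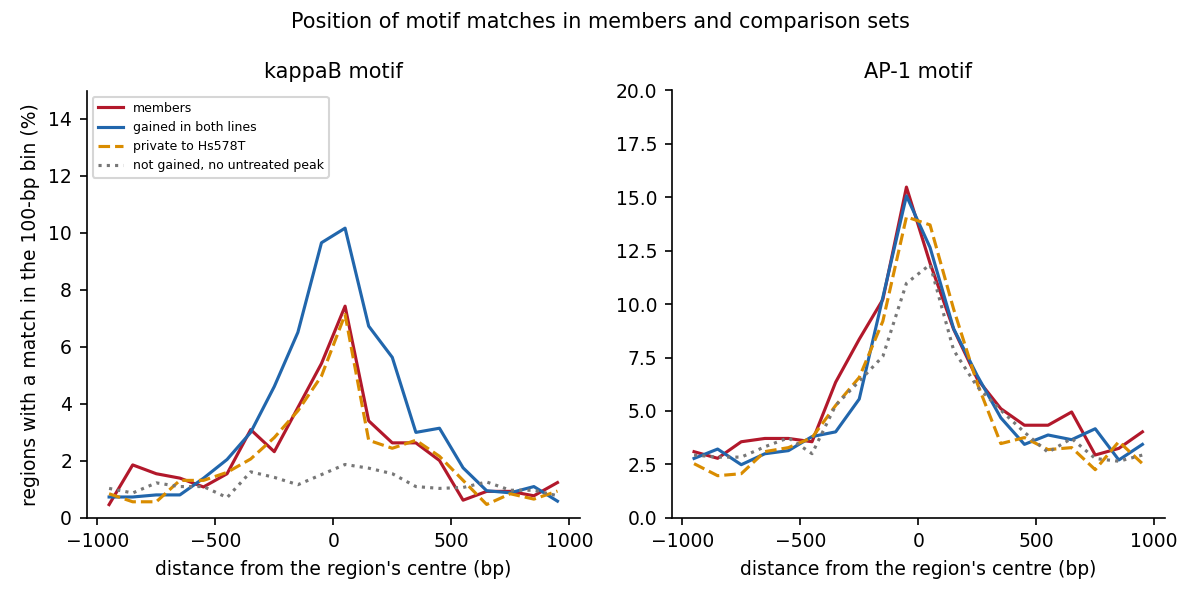
Share of regions (vertical axis, percent) with a κB match (left) or an AP-1 match (right) in each 100-bp bin against the distance from the region's centre in bp. The κB curve of members is furthest above that of regions not gained near the centre, where it averages 5.03% against 1.57% within 200 bp. At 600 to 1000 bp the averages are 1.14% and 1.03%. For AP-1 they are 11.6% against 9.56% within 200 bp and 3.54% against 3.003% at 600 to 1000 bp. In the bin from −100 to 0 bp, AP-1 is at 15.5% in members and 10.98% in regions not gained.

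Members with a κB match were seldom marked in KO cells. A peak in at least 1 MDA-MB-231 Fn14 KO list was found for 12 of the 129 members with a match (9.30%) and for 167 of the 517 without (32.3%). List by list, the shares with and without a match were 6.98% and 23.2%, then 2.33% and 8.90% in untreated replicates 1 and 2, and 3.88% and 13.5%, then 5.43% and 10.8% in TWEAK replicates 1 and 2. Members with a match had the lower share in 4 of 4 MDA-MB-231 and 4 of 4 Hs578T KO lists. The Hs578T shares rest on 4, 1, 3 and 3 members with a match, so they carry little weight. In untreated replicate 1 of that line they were 3.10% with and 3.87% without a match. The median strength was close, at 2.38 and 2.18. Seen the other way, 25.1% of the 467 members with no MDA-MB-231 KO peak held a κB match, and 6.70% of the 179 with one. Regions that were not gained, most of which had a KO peak, held a match in 7.14%.

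The contrast held below and above the median strength, at 23.1% against 4.71% for the weaker members and 27.1% against 8.51% for the stronger ones. Without the KO list that had the most peaks, untreated replicate 1, it was 22.99% against 7.26%. It was also seen, with values of another size, in regions gained in both lines (37.4% against 26.3%) and in regions private to Hs578T (21.9% against 8.11%), while regions that were not gained had 7.99% against 5.93%. All consensus regions showed the same order, at 11.8% without and 7.87% with an MDA-MB-231 KO peak. For AP-1, the members without and with a KO peak had 42.8% and 45.8%. Whether a member had a peak in a Hs578T TWEAK list made little difference to the κB share, at 20.7% with 1 list and 19.5% with none.

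**Figure D5:**
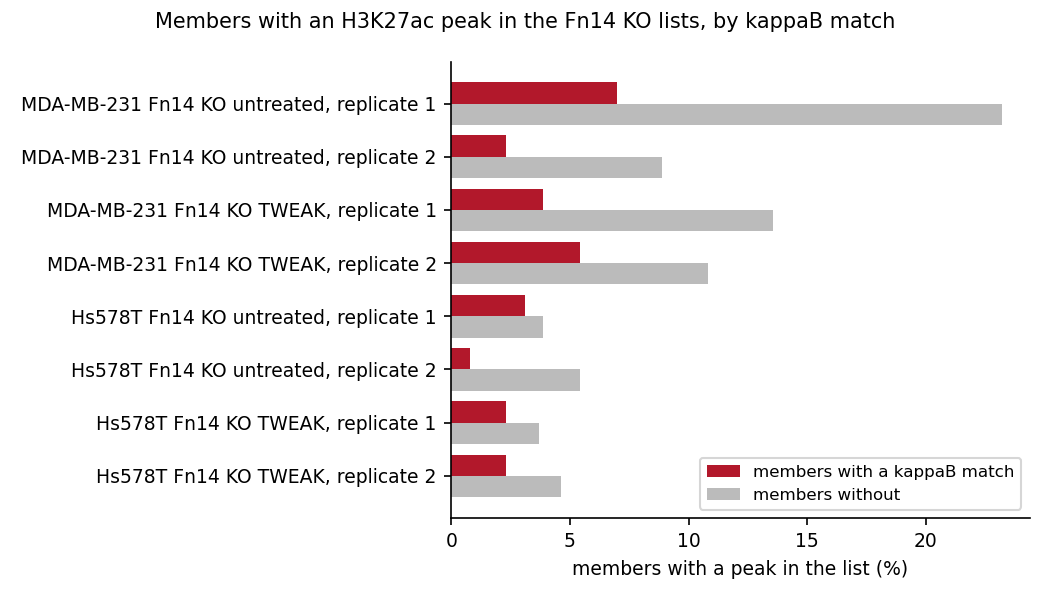
Share of members with an H3K27ac peak in each of the 8 Fn14 KO lists (horizontal axis, percent), for the 129 members with a κB match in the central 500 bp and the 517 without. The bar of members with a match is the shorter in all 8 lists, for example 6.98% against 23.2% in MDA-MB-231 untreated replicate 1. In the Hs578T lists that bar rests on 1 to 4 members.

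AP-1, searched as TGANTCA, was the most frequent motif in the members, in 282 of 646 windows (43.7%). That share was the same as in regions gained in both lines (43.3%) to within a point, and lay near that of regions private to Hs578T (45.1%). Beyond 2 kb of a start site, 44.9% of members and 43.5% of all consensus regions had a match, so AP-1 did not set the members apart from other distal regions. Both an AP-1 and a κB match were held by 54 members (8.36%), against 2.66% of all consensus regions. Among the other motifs, also beyond 2 kb, STAT (TTCNNNGAA) was found in 21.3% of members against 16.6% of consensus regions and ISRE, the site of interferon regulatory factors, in 13.6% against 10.2%. TEAD (CATTCC), with 32.8% against 31.6%, and RUNX (TGTGGT), with 36.7% against 36.3%, were near the background. Lower shares were found for the SNAI/ZEB E-box (CACCTG), with 25.9% against 31.5%, and the bHLH E-box (CAGCTG), with 18.5% against 23.6%. Shared gains beyond 2 kb were close to the members for STAT (19.3%), the SNAI/ZEB E-box (27.8%) and the bHLH E-box (19.3%), but not for ISRE (9.13%). At any distance, ISRE was found in 13.2% of members and 13.4% of MDA-MB-231 gains with an untreated Hs578T peak. The median GC content of the windows, which bears on such shares, was 41.8% in members and 43.8% in consensus regions beyond 2 kb.

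Members lay away from promoters. Only 36 (5.57%) were within 2 kb of a protein-coding start, against 25.1% of all consensus regions, 9.30% of the regions that were not gained and 5.41% of the shared gains. A further 255 (39.5%) were intronic, 59 (9.13%) touched an exon and 296 (45.8%) lay between genes. The median distance to a start was 36.02 kb, against 18.4 kb for all consensus regions. Most nearest promoters were acetylated already, slightly fewer than for consensus regions in general. Of the 609 members beyond 2 kb with a named nearest start, 431 (70.8%) had a nearest promoter with a peak in both untreated control lists of both lines, and in 1 case, DSCAML1, the promoter was itself gained with TWEAK in MDA-MB-231. In no list did the share of these nearest promoters with a peak leave the range of 71.9% to 74.9%, treatment, genotype and line included. For all consensus regions beyond 2 kb the range was 75.2% to 78.0%, and for regions gained in both lines 75.4% to 78.3%.

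The strongest member lying over a start was CCL5_37 (chr17:35879729-35881083), at the gene of the T-cell chemokine RANTES. It had −log10 q-values of 4.47 and 8.41 in the MDA-MB-231 TWEAK lists, 1.64 in Hs578T TWEAK replicate 1 and no peak in the other 13 lists, all 8 KO lists among them. The κB matches printed above lie 43 to 52 bp and 58 to 67 bp upstream of the annotated start at position 35880360, CCL5 being on the minus strand. Another annotated start, at position 35880793, has the same matches 366 to 390 bp downstream of it. LCP1_18 (chr13:46165746-46166716), 1.80 kb from a start of the gene of the actin-bundling protein L-plastin, had 5.94 and 5.25, and 2.42 in 1 KO list. ANK3_145 (chr10:60572434-60574028), over a start of the ankyrin-G gene, had 3.74 and 3.11 and no other peak. CLDN1_630 (chr3:190322187-190322695), over the start of the claudin-1 gene, had 1.22 and 2.73, less than the 4.38 of Hs578T TWEAK replicate 1, and had a peak in 2 KO lists.

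Members were scattered over genes. The body or the 50 kb around a start of 759 protein-coding genes held at least 1 of 468 members, and 2 genes, LAMB3 and TRPA1, reached 3. Joined at 50 kb or less, 594 members stood alone, 46 formed pairs and 6 formed 2 groups of 3. Near LAMB3, which encodes the β3 chain of laminin-332, a component of epithelial basement membrane, the members were CAMK1G_10 (chr1:209576928-209577875), with 6.89 and 8.59, G0S2_77 (chr1:209670398-209671293), with 3.80 and 5.32, and LAMB3_453 (chr1:209632918-209635514), with 1.77 and 2.06. Of these, CAMK1G_10 had KO peaks of 1.87 and 1.28 and the other two had none. LAMB3 also had 2 regions gained in both lines nearby. A member in the body of LAMA3, encoding the α3 chain of the same laminin, LAMA3_288 (chr18:23824520-23824839), had 2.39 and 3.81 with no other peak and held a κB match.

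Upstream of TRPA1, the gene of an irritant-gated cation channel, TRPA1_7, TRPA1_14 and TRPA1_126 lay within 19.5 kb of each other on chromosome 8, with −log10 q-values of 7.21 and 8.06, of 6.77 and 5.76, and of 4.49 and 3.23. No region gained in both lines or private to Hs578T was near this gene. TRPA1_7 and TRPA1_14 had a peak in no other list, and TRPA1_126 had KO peaks of 1.37 and 1.17.

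Of 15 lists of genes tied to TWEAK or to these cells, 20 members (3.10%) lay near a gene of any list, against 4.02% of shared gains and 3.43% of all consensus regions. Chemokine and cytokine genes had 4 members (0.619%, against 0.257% of consensus regions). Beside CCL5_37 these were IL1B_212 (chr2:112839029-112840592), upstream of the interleukin-1β gene, with 2.72 and 6.51 and no other peak, SDAD1_318 near CXCL10 and CXCL11, with 4.01 and 2.24 and peaks in 1 Hs578T TWEAK and 2 Hs578T KO lists, and CXCL6_562 near CXCL1 and CXCL6, with 1.51 and 2.22 and a peak in 1 Hs578T TWEAK list. Integrin, laminin and matrix genes had 5 members (0.774% against 0.482%), namely those at LAMB3 and LAMA3 and COL17A1_230, upstream of the collagen XVII gene, with 2.61 and 2.96 and 1 KO peak of 1.19. NF-κB feedback inhibitors had 2. TNFAIP3_158 (chr6:137848554-137850103), upstream of the gene of the ubiquitin-editing inhibitor A20, had 5.04 and 3.01 and a peak of 1.27 in Hs578T TWEAK replicate 2, and EXOC3L4_415 near TNFAIP2 had 1.88 and 2.85 and 2 KO peaks. TNFAIP3, TNFAIP2, CXCL10 and CXCL11 each also had 1 region gained in both lines nearby. CCL5 had 2 such regions and 1 private to Hs578T, and COL17A1 had 1 private to Hs578T. IL1B, CXCL1, CXCL6 and LAMA3 had neither kind nearby.

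Of the NF-κB subunit and TNF receptor list, BIRC2 and BIRC3, the genes of the cIAP ubiquitin ligases that hold NIK in check, shared 1 member, BIRC2_401, with 1.92 and 2.91. Apoptosis control genes had 2 members, BCL2_346 with 2.27 and 2.13 and TNFRSF10D_556 with 3.06 and 1.52. Lists with 1 member were proteases (FANK1_339, in the body of ADAM12, with 2 κB matches), epithelial-mesenchymal transition (ZEB2_228, with 5.38 and 2.64), growth factors and receptor kinases (NRG1_423), NAD metabolism (NAMPT_585, with 1.58 and 1.42 and 2 Hs578T KO peaks), interferon and STAT regulators (JAK1_366) and basal or mesenchymal identity (TP63_491). The lists of AP-1 and small MAF factors, of the TGF-β and BMP pathway, of YAP, TEAD and their targets and of luminal identity had 0 members. With so few members a list, the counts describe the loci and set no list apart. NAMPT also had 1 region gained in both lines and 3 private to Hs578T nearby, and NRG1 had 1 of each kind. BIRC2 and BIRC3 each had 2 regions private to Hs578T nearby. BCL2, TNFRSF10D, ADAM12, ZEB2, JAK1 and TP63 had neither kind.

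Members, like the other gain classes, lay nearer to other TWEAK gains than regions that were not gained. For shared gains, the share within 50 kb of another region gained in both lines was 14.1%. For MDA-MB-231 gains with an untreated Hs578T peak it was 11.5%, and for Hs578T private gains 9.86%. A region gained in both lines lay within 50 kb of 76 members (11.8%), against 7.99% of all consensus regions and 7.43% of the regions that were not gained, and within 10 kb of 3.56% against 2.02% and 1.39%. Any Hs578T gain lay within 50 kb of 120 members (18.6%, against 15.2% and 13.5%), CCL5_37 among them at 8.47 kb and G0S2_77 at 1.88 kb. Another member lay within 50 kb of 8.05% of members, against 3.66% of all consensus regions near a member. A member lay as near to 6.22% of shared gains, 3.94% of MDA-MB-231 gains with an untreated Hs578T peak and 3.29% of Hs578T private gains. An untreated MDA-MB-231 control peak lay within 10 kb of 43.8% of members, against 47.9% of regions that were not gained, and an untreated Hs578T peak within 10 kb of 44.6% against 50.9%.

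The 50 kb on each side of a member carried less acetylation than those of consensus regions in general. The mean length under peaks was 4.25 and 5.17 kb in untreated and 5.14 and 5.39 kb in TWEAK-treated MDA-MB-231 control lists, replicates 1 and 2. As a ratio to the same mean over all consensus regions, this was 0.766 and 0.776 untreated and 0.884 and 0.893 with TWEAK. Regions gained in both lines were nearly the same in these lists, at 0.763 and 0.761 untreated and 0.883 and 0.894 with TWEAK. Regions private to Hs578T were lower but also higher with TWEAK in these lists, at 0.688 and 0.699 untreated and 0.794 and 0.804 with TWEAK. In Hs578T control lists, the ratio of members was 0.722 and 0.702 untreated and 0.814 and 0.796 with TWEAK. Their length itself overlapped there, at 4.99 and 4.76 kb against 4.99 and 5.29 kb. Regions gained in both lines had 0.774 and 0.761 untreated and 0.885 and 0.871 with TWEAK there. For members, the KO lists are given next. In Fn14 KO lists it did not part by treatment, at 0.784 and 0.783 untreated and 0.776 and 0.783 with TWEAK in MDA-MB-231, and 0.689 and 0.692 untreated and 0.688 and 0.705 with TWEAK in Hs578T. The control lists are those of the rule, so these ratios are a description.

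Members were unevenly spread over chromosomes. Chromosome 1 held 86 (13.3% of members against 9.70% of consensus regions), chromosome 8 held 53 (8.20% against 4.30%) and chromosome X held 27 (4.18% against 2.70%), while chromosome 19 held 6 (0.929% against 3.38%). Regions private to Hs578T had 3.47% on chromosome 8 and 8.92% on chromosome 1, and shared gains 4.75% and 10.7%. On chromosome X they had 1.78% and 2.27% in the same order. The low share on chromosome 19 was common to the other sets, with 2.07% of regions private to Hs578T, 1.17% of shared gains and 1.91% of regions that were not gained. Members on chromosomes 1 and 8 had a κB match in 25.9% and those elsewhere in 18.3%.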

How the data were processed

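H3K27ac ChIP-seq had been performed in 16 samples, 2 in each of 8 groups. Per the study's methods the authors trimmed reads with Trimmomatic, aligned the remainder against hg38 by Bowtie2, ran MACS2 with input subtracted and removed blacklisted regions. Versions were not given in the sources used here. The deposited lists, 1 per sample, give for each peak a score, a ratio (fold enrichment) and p- and q-values as −log10. Broad calling was inferred from the columns, and the score is the −log10 q-value times 10 in integer form. The lists hold no reads, so depth is unknown and the agreement of replicates is the only guide to precision. GENCODE 44 supplied the protein-coding genes, and sequence was read from hg38. Coordinates are 1-based.

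Members, gene lists and motifs were chosen with earlier results of these data known. Peaks were merged at 1 bp and regions with peaks in 2 or more lists kept. A region with several peaks in a list took the highest value. Named members were the 15 strongest by the lower −log10 q of the MDA-MB-231 control TWEAK lists, the genes with the most members, up to 3 genes per gene list, members gained in Fn14 KO cells and the 5 weakest; the κB results and other members were singled out after their values were seen. Printed sequences are of strong members off chromosome 8. Motifs were 20 patterns searched on both strands. Shares per list were compared with exact permutation tests, two-sided, with a threshold of 0.05, in place of the read-based DiffBind of the study. The scripts were tested on simulated lists. Python 3.11.15, numpy 2.4.6, pandas 2.3.3 and scipy 1.17.1 were used.

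Alternatives were a −log10 q of at least 2, lists trimmed to 39544 peaks, 50% cover, merging at 500 bp, no minimum of lists, other windows and distances, each list left out in turn, and replicate number as a block.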

Additional observations from a re-analysis of the deposited data

How the results depend on the processing

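The number of members ranged from 493 to 1024 when each control list was left out in turn, the highest without TWEAK replicate 1 of MDA-MB-231, and from 636 to 874 under the other settings. The TWEAK effect on the share of members with a peak in Fn14 KO lists stayed negative except without untreated replicate 1 of MDA-MB-231 Fn14 KO, where it was 1.39 points (range over lists left out −4.80 to 1.39). Relative to all consensus regions it ranged from −1.28 to 0.103 with a list left out, turning positive without MDA-MB-231 control TWEAK replicate 2, and was 0.138 with −log10 q of at least 2 and 0.565 with 50% cover. The cause was not tested. The difference between lines in the KO lists, whose direction the choice of members favours, was between 5.19 and 11.4 points with a list left out, and its value of 8.28 points does not depend on how labels are exchanged.

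Replicate numbers gave little sign of pairing. Over consensus regions, the deviations of same-numbered lists correlated at 0.0356 within MDA-MB-231 Fn14 KO and at 0.0534 within Hs578T Fn14 KO cells. With 2 replicates a group, this cannot show that the samples were unpaired. With replicate number as a block, the differences remained −1.70, −0.42 and 8.28 points, with exact permutation p of 0.625 and 0.5 for the first pair.

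Shares that rest on a window moved with it. Members near a start were 3.10% within 1 kb and 13.8% within 5 kb. An AP-1 match was found in 33.7% at 300 bp and 59.1% at 1000 bp. For κB, alternatives added after the data were seen gave 15.2% at 300 bp, 29.9% at 1000 bp and 14.4% for the narrower pattern, against 4.75%, 12.3% and 2.74% in regions that were not gained. A Hs578T gain lay within 10 kb of 7.12% and within 100 kb of 29.1%, and an untreated MDA-MB-231 peak within 5 kb of 27.2% and within 25 kb of 67.3%. Members are weak peaks, 58.4% of them reaching a −log10 q of 2 in both TWEAK lists, and without reads a missing peak cannot be told from a weak one.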
